A study of Mus musculus with 2 samples.

Results

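The PPAR and RXR receptors are 6 genes of the nuclear receptor superfamily, Pparg, Ppara, Ppard, Rxra, Rxrb and Rxrg. They were picked by their symbols, and all 6 were found among the 23361 genes that carried a value in both libraries. RNA-Seq was carried out on mouse brown preadipocytes on day 0 (D0) and on the brown adipocytes formed from them by day 7 (D7), and each stage was sequenced as 1 library. The cells came from interscapular brown adipose tissue of newborn C57BL/6 mice, and neither stage carried an engineered allele according to the labels. The D0 cells had been grown in medium with 20% fetal bovine serum and then in medium with 10% serum, insulin (0.1 μM) and the thyroid hormone T3 (1 nM). The D7 cells had also received the inducers IBMX (0.5 mM), dexamethasone (2 μg/ml) and indomethacin (0.125 mM) from day 0, and were afterwards returned to the medium without the inducers. These doses are those of the labels, and the study's methods give other doses of insulin and dexamethasone. Those methods also grow the preadipocytes in medium with 10% serum and name insulin and T3 only from day 0 on. Whether the D0 cells had received insulin and T3 was therefore not settled. The labels call the cells primary cultures, whereas the study's methods describe immortalization of the preadipocytes with a large T antigen, so which of these the libraries hold was not settled.

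PPARs are receptors for fatty acids and their derivatives. A PPAR binds DNA only as a pair with an RXR, the receptor for 9-cis retinoic acid and related ligands, at a pair of AGGTCA-like half-sites with 1 base between them. PPARγ, encoded by Pparg, is required for the formation of fat cells and drives genes of fat storage. PPARα, encoded by Ppara, drives fatty acid oxidation and ketone body synthesis in liver, and is more abundant in brown than in white fat. PPARδ, encoded by Ppard, is found in most tissues and acts on fatty acid oxidation in muscle and fat. RXRα and RXRβ are widely expressed, and RXRγ is best known from skeletal muscle and parts of the nervous system. Of the inducers, indomethacin can itself activate PPARγ, and IBMX raises cyclic AMP.

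The shared DNA-contact module of these receptors is shown first for 5 of them, because it is the feature that the whole group shares. The lines give the coding strand of the first zinc finger from 5′ to 3′, 63 bases in each, from the GENCODE M21 annotation on GRCm38 (mm10). Capitals mark the codons of the 4 cysteines that hold the zinc ion. In the RXR genes the finger is split over 2 exons, and the coordinates include the intron.
Ppara (chr15:85787203-85787265, exon 4): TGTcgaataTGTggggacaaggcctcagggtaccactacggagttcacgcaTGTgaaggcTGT
Ppard (chr17:28295430-28295492, exon 4): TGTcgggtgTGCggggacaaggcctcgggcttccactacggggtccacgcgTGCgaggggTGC
Rxra (chr2:27741176-27741798, exons 3 and 4): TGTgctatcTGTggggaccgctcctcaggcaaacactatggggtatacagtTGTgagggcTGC
Rxrb (chr17:34033684-34034056, exons 3 and 4): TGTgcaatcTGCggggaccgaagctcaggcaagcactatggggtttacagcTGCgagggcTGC
Rxrg (chr1:167625045-167627326, exons 3 and 4): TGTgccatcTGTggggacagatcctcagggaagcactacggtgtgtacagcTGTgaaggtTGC

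Among the 3 RXR genes the 21 residues encoded by this stretch were identical, and between Ppara and Ppard 19 were. Between Ppard and each RXR, 14 of the residues were the same. Over the whole stretch from the first to the last of the 8 zinc-binding cysteines, identity was 83.6% to 89.1% among PPARs, 92.9% to 96.4% among RXRs and 58.2% to 63.6% between the families. The second finger differed in length, with 3 residues between its first pair of cysteines in the PPARs and 5 in the RXRs. The encoded proteins have 505 (Pparg), 468 (Ppara), 440 (Ppard), 467 (Rxra), 524 (Rxrb) and 463 (Rxrg) residues. Since reads of related genes could be mistaken for each other, the transcripts were compared over stretches of 90 bases. The closest pair, Rxra and Rxrb, differed by at least 7 bases in every such stretch, and the PPARs differed from each other by at least 13. The study's methods allow up to 5 mismatches in the alignment, and 0 of the 15 pairs had a stretch within that limit. Only the chosen transcript of each gene was compared. The submitters' processing notes name another aligner, so whether that limit applied to these values was not settled.

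Levels are given as FPKM, the fragments of a gene scaled to its transcript length and to the aligned fragments of its library, as deposited. The number of fragments behind each value was recovered from the deposited values, with fitted totals of 21472759 (D0) and 18264971 (D7) fragments. These totals are fitted denominators, and the study reported larger numbers of mapped reads. The 95% intervals given with levels and ratios come from the recovered fragments and cover counting error only. As each stage had 1 library, the spread between cultures is unknown and no test between the stages was possible. A ratio compares the libraries, and in bulk RNA fewer cells of a type and less RNA per cell cannot be told apart.

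Pparg was the receptor that differed most between the libraries among the 5 receptors above 0 in both. Pparg (ENSMUSG00000000440.12, chr6:115360951-115490399, plus strand) had 3.83 FPKM at D0 (131 fragments, interval 3.20 to 4.55) and 128 FPKM at D7 (3709 fragments, 124 to 132). The ratio of D7 to D0 was 33.5 (28.1 to 40.1), a log2 ratio of 5.06. Among the 14986 genes above 0 in both libraries, this ratio was the 167th from the top. By level, Pparg moved from rank 8860 of 23361 at D0 to rank 678 at D7.

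Ppara was low in both libraries, and its level at D7 was close to that of Pparg at D0. Ppara (ENSMUSG00000022383.13, chr15:85734983-85802819, plus strand) had 0.219 FPKM at D0 (15 fragments, 0.122 to 0.361) and 4.11 FPKM at D7 (242 fragments, 3.61 to 4.66). Its ratio was 18.8 (11.2 to 34.1), the 274th from the top. With a pseudocount of 1 FPKM the ratio was 4.19. The locus in the table is longer than the transcript of 3413 bp used for the fragments. With the terminal exons extended to the locus, a choice made after seeing the data, the fragments were 35 and 561 and the interval of the ratio was 13.3 to 27.2.

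Ppard was the PPAR with the highest level at D0, and its level at D7 was 1.29 times as high. Ppard (ENSMUSG00000002250.16, chr17:28232700-28301474, plus strand) had 18.6 FPKM at D0 (1237 fragments, 17.6 to 19.7) and 24.0 FPKM at D7 (1359 fragments, 22.8 to 25.4). The interval of its ratio was 1.20 to 1.40, so the ratio stayed below 2.0. The table names a noncoding transcript for Ppard, and the fragments rest on the longest coding transcript of 3277 bp instead. Its locus is shared with 1810013A23Rik, which was listed at 0 in both libraries.

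Rxra was the highest RXR in both libraries. Rxra (ENSMUSG00000015846.14, chr2:27676440-27762957, plus strand) had 20.9 FPKM at D0 (2121 fragments, 20.0 to 21.8) and 32.4 FPKM at D7 (2795 fragments, 31.2 to 33.6), a ratio of 1.55 (1.47 to 1.64). Rxrb (ENSMUSG00000039656.17, chr17:34031812-34038399, plus strand) had 14.5 FPKM at D0 (763 fragments, 13.5 to 15.6) and 20.3 FPKM at D7 (906 fragments, 19.0 to 21.7), a ratio of 1.40 (1.27 to 1.54). Both of these widely expressed RXRs were thus a little higher in the D7 library, and both stayed below 2.0.

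Rxrg was the receptor listed at 0 at D0. Rxrg (ENSMUSG00000015843.10, chr1:167598384-167639623, plus strand) had 2.05 FPKM at D7 (72 fragments, 1.61 to 2.58). A count of 0 at D0 allows up to 3 fragments, or 0.0724 FPKM, and the level at D7 was 28.4 times that limit. The counting error at D7 is not part of that figure. Of the 1012 genes listed at 0 at D0 and above 0 at D7, 56 had a level at D7 as high as that of Rxrg or higher.

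**Figure D1:**
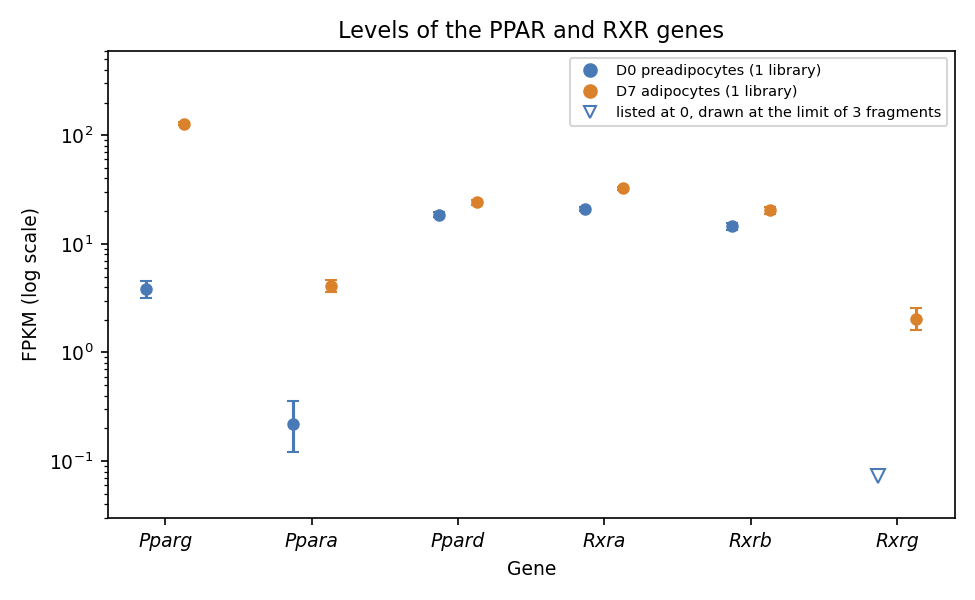
Levels of the 6 receptors in FPKM on a log axis in the D0 and the D7 library, 1 library per stage, with 95% counting intervals as bars. Pparg goes from 3.83 to 128 FPKM and ends above every other receptor, and Rxrg is drawn at D0 as an open triangle at the limit of 3 fragments, 0.0724 FPKM.

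Calls were made where the ratio reached 2.0 or did not exceed 0.5. Of the 14986 genes above 0 in both libraries, 18.5% were called higher at D7 and 13.2% lower. Of the 5 receptors in that set, 2 (Pparg and Ppara) were called higher, 0 were called lower, and Rxrg was counted apart. With values under 0.01 FPKM set to 0.01 and both libraries scaled to the median over all values, 2836 genes were called higher and 3832 lower, in place of 2767 and 1980. The counts with this floor and division equal those that the study reported, and the main counts used here differ from them. The study's methods do not state this setting. That floor lets in genes at 0 in 1 library, and over the 14986 genes above 0 in both alone the same division gave 2001 higher and 3247 lower. Under that division the ratio of Pparg was 26.2, and those of Ppard, Rxra and Rxrb were 1.01, 1.21 and 1.09. The slightly higher levels of the latter genes at D7 therefore depend on how the libraries are set against each other.

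The comparison of ratios between receptors does not depend on the scaling. Over the 10 pairs of receptors above 0 in both libraries, the ratio of Pparg was 25.9 times that of Ppard (21.3 to 31.4), 21.6 times that of Rxra (17.9 to 26.0) and 23.9 times that of Rxrb (19.5 to 29.3). The ratio of Ppara was 14.5 times that of Ppard (8.66 to 26.8), 12.1 times that of Rxra (7.25 to 22.3) and 13.4 times that of Rxrb (7.98 to 24.9). Pparg and Ppara differed from each other by 1.78 times, with an interval of 0.940 to 3.06 that includes 1. That interval rests on 15 fragments of Ppara at D0. It was not recomputed with the terminal exons extended, which gave 35 fragments, so whether it would then include 1 was not determined. Relative to Rxra, Ppard was lower at D7 than at D0, by a factor of 0.834 (0.757 to 0.918). For Ppard against Rxrb (0.926, 0.816 to 1.05) and Rxra against Rxrb (1.11, 0.991 to 1.24) the intervals include 1.

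**Figure D2:**
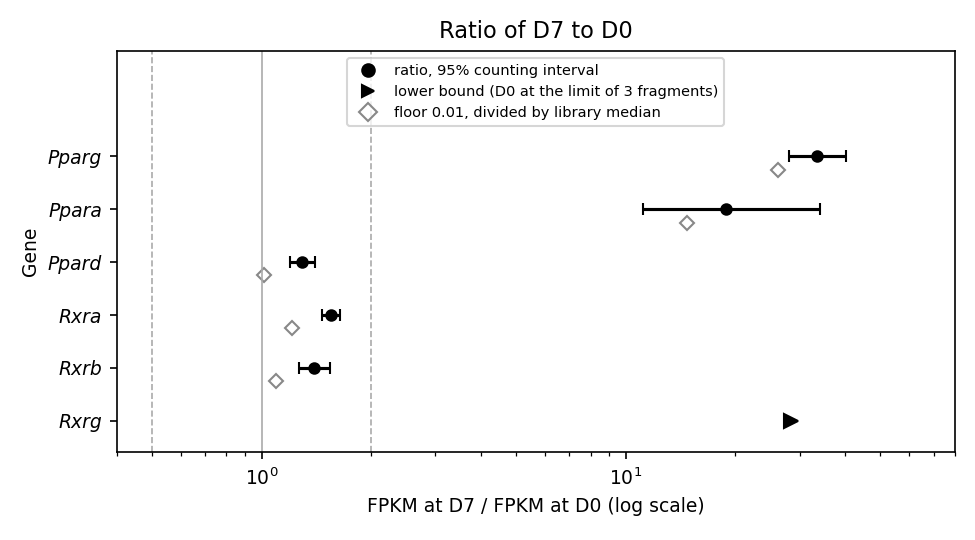
Ratio of D7 to D0 for each receptor on a log axis with its 95% counting interval, with dashed lines at 2.0 and 0.5, and open diamonds for the ratio after the floor and division by the median of all values. Pparg (33.5) and Ppara (18.8) lie above the upper line, Rxrg is drawn as a lower bound of 28.4, and Ppard, Rxra and Rxrb lie between 1.29 and 1.55.

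The order of the levels differed between the libraries. At D0 it was Rxra, Ppard, Rxrb, Pparg, Ppara and Rxrg. Rxra was 1.13 times as high as Ppard (1.05 to 1.21), Ppard 1.28 times as high as Rxrb (1.17 to 1.40), Rxrb 3.79 times as high as Pparg (3.15 to 4.60), and Pparg 17.5 times as high as Ppara (10.2 to 32.2). At D7 Pparg came first, 3.95 times as high as Rxra (3.76 to 4.15). It was followed by Rxra over Ppard (1.35, 1.26 to 1.44), Ppard over Rxrb (1.19, 1.09 to 1.29), Rxrb over Ppara (4.94, 4.28 to 5.72) and Ppara over Rxrg (2.00, 1.53 to 2.64). Counting error did not cover any of these neighbouring steps. The spread between cultures could not be set beside them, and the place of Ppard rests on the length the authors used for it, which the table does not give.

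Within the PPAR family the leading member changed. The ratio of Pparg to Ppard was 0.206 at D0 (0.171 to 0.247) and 5.33 at D7 (5.01 to 5.68). The sum of the 3 PPAR levels went from 22.6 to 156 FPKM, a ratio of 6.90 (6.49 to 7.34). Ppard made up 82.1% of that sum at D0 and 15.4% at D7, and Pparg made up 16.9% and 82.0%. Ppara contributed 0.966% and 2.63%. Of the gain in the sum, 93.0% was Pparg, 4.08% Ppard and 2.91% Ppara, and after division by the median of all values the share of Ppard was 0.233%.

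Within the RXR family the make-up differed little. The sum of the RXR levels went from 35.4 to 54.8 FPKM, a ratio of 1.55 (1.47 to 1.63). Rxra made up 59.0% of it at D0 and 59.2% at D7, Rxrb 41.0% and 37.1%, and Rxrg 0% and 3.75%. Rxra was 1.44 times as high as Rxrb at D0 (1.32 to 1.57) and 1.60 times at D7 (1.48 to 1.72). Although it was the receptor with the lowest level at D7, Rxrg supplied 10.6% of the gain in the RXR sum, and 21.6% after division by the median of all values.

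RXRs are the partners that PPARs need for binding, so the sums were set against each other within each library. The PPAR sum was 0.639 times the RXR sum at D0 (0.598 to 0.683) and 2.85 times at D7 (2.73 to 2.98). PPAR transcripts were thus the smaller sum in the D0 library and the larger in the D7 library. Ppard made up 82.1% of the PPAR sum at D0. These sums and the shares within the PPAR family therefore also rest on the length the authors used for Ppard, which the intervals do not cover. These are sums of transcript levels per length, and protein amounts were not measured. RXR also pairs with other nuclear receptors, and the 13 other partners listed summed to 146 FPKM at D0 and 134 at D7. The PPARs made up 13.5% of all listed partners at D0 and 53.8% at D7. The sum of all partners was 4.75 times the RXR sum at D0 and 5.31 times at D7.

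**Figure D3:**
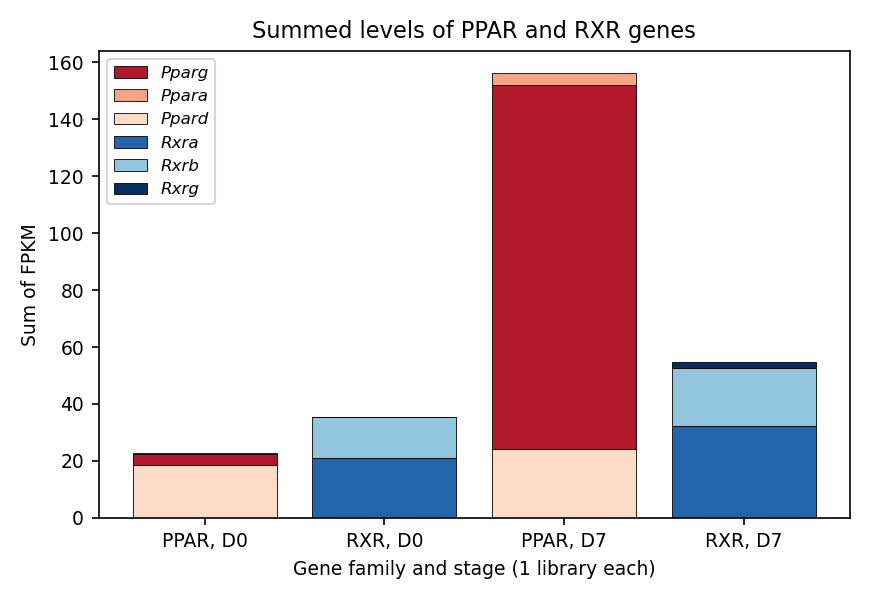
Stacked bars of the PPAR levels and the RXR levels in FPKM at D0 and D7, 1 library per stage, with each receptor as a segment. The PPAR bar goes from 22.6 to 156 FPKM with Pparg as most of the D7 bar, and the RXR bar goes from 35.4 to 54.8 FPKM with similar segments.

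Pparg is transcribed from several promoters, and the forms that start at the most downstream of those shown encode PPARγ2, the form found mainly in fat cells. The stretches of 250 bases before the 3 starts in the RefSeq table on GRCm38.p6 are shown, since they differ in base composition. Capitals mark CACCC or its complement GGGTG, a motif bound by KLF factors, on the plus strand.
Pparg, first start (chr6:115360894-115361143): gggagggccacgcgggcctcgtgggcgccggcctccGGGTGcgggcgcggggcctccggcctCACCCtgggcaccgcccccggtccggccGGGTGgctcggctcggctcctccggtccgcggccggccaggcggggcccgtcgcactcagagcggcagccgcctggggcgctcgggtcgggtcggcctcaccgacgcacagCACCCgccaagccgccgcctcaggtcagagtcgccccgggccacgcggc
Pparg, second start (chr6:115362099-115362348): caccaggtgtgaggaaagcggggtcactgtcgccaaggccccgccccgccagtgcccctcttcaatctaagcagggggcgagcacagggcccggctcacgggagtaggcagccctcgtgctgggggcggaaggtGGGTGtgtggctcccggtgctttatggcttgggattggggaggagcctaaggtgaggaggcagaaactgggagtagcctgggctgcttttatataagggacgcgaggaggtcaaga
Pparg, most downstream start (chr6:115421816-115422065): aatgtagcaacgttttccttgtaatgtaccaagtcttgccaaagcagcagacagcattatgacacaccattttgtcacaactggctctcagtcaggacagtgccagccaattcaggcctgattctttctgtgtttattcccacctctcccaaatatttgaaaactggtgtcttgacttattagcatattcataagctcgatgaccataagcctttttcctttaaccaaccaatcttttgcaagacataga

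The first stretch had a GC content of 82.4% with 38 CpG dinucleotides and 4 copies of the motif. The second had 63.6%, 12 CpG dinucleotides and 1 copy. The third, which precedes the transcript named in the table, had 40.8%, 2 CpG dinucleotides and 0 copies. Over all 32851 stretches the medians were 52.4% and 6 CpG dinucleotides. The motif was found in 7 of the 11 stretches of the 6 receptors (63.6%) and in 52.0% of all stretches. In the study's reporter assays, KLF16 lowered the activity of a longer PPARγ promoter, and deleting an upstream part abolished this effect. The study proposes a CACCC motif in that part as a potential KLF16 site. By the study's numbering, the motif lies farther upstream than these stretches reach. The counts given here therefore do not bear on that site, and which start the reporter carried is not stated.

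One FPKM value per gene does not tell these starts apart. In the transcript that starts at the third, 127 bases (7.19% of its length) are in no other coding transcript of Pparg. The primers that the study used for PPARγ lie in 1 exon on chr6, the forward one at chr6:115472977-115472997 and the reverse one at chr6:115473099-115473118, with a product of 142 bp. They are shown because that exon is common to 3 of the 5 coding transcripts, including the one from the third start, so they also read several forms at once.
Pparg forward primer: GTGCCAGTTTCGATCCGTAGA
Pparg reverse primer: GGCCAGCATCGTGTAGATGA

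To see which other genes had levels like those of the receptors, the distance in log2 FPKM over the 2 libraries was used. The nearest genes to Pparg were Slc25a10, a mitochondrial dicarboxylate carrier (4.24 FPKM at D0 and 128 at D7, distance 0.147), Aldh1a1, a retinaldehyde dehydrogenase (3.92 and 156, distance 0.283), and Ndrg2 (4.87 and 108, distance 0.428). The nearest to Ppara was Prkaa2, a catalytic subunit of AMP-activated kinase, with 0.238 FPKM at D0 and 3.91 at D7 (distance 0.142). The pattern of Pparg was rare, with 1 gene within a distance of 0.2, and that of Ppara had 4. Ppard (nearest Med25), Rxra (Kxd1) and Rxrb (Trappc5) had 118, 55 and 93 genes within the same distance. With 2 libraries, many unrelated genes can lie close together.

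Known PPAR target genes of fat storage were higher at D7 almost throughout. Of 20 listed genes, all were above 0 in both libraries, 19 were called higher and 0 lower (18 and 0 after division by the median of all values), beside 18.5% and 13.2% of all genes. The median log2 ratio was 7.19, against 0.02 over all genes. Fabp4, a fatty acid binding protein, was at 20.3 FPKM at D0 and 14390 at D7, which was 710 times as high (636 to 796). Adipoq, the hormone adiponectin, was at 0.221 FPKM (5 fragments) at D0 and 943 at D7. The largest ratios belonged to Retn, the hormone resistin (0.116 and 1416 FPKM, ratio 12250, with a lower interval end of 3392), Plin1, which coats lipid droplets (0.0554 and 324 FPKM, ratio 5848, lower end 1618), and Adipoq (ratio 4263, lower end 1827). Retn and Plin1 rest on 2 fragments each at D0. Among the smaller ratios were those of Gk, glycerol kinase (1.86 and 4.21 FPKM, 2.26), and Nr1h3, the oxysterol receptor LXRα (2.53 and 33.6 FPKM, 13.3).

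Target genes of fatty acid oxidation and ketogenesis, the set best known from PPARα, were more mixed. Of 24 listed genes, 20 were above 0 in both libraries, of which 15 were called higher, 1 lower and 4 neither. Of all genes, 18.5% were called higher and 13.2% lower, and the median log2 ratio of the list was 2.57. With the floor and division by the median of all values, 16 of the 24 were called higher and 3 lower. Of the other 4, 2 were listed at 0 at D0, 1 at D7 and 1 in both. Cpt1b, the muscle and brown fat form of the enzyme that admits fatty acids to mitochondria, had 1.25 and 34.7 FPKM, a ratio of 27.7 (21.9 to 35.5). Pdk4, a kinase that restrains glucose oxidation, had 4.23 and 58.1 FPKM, a ratio of 13.7 (12.2 to 15.5). Cpt1a, the liver form of the same entry enzyme, was instead at 36.4 and 23.1 FPKM (ratio 0.634). The call in the lower direction was Fabp3, the heart fatty acid binding protein, with 37.9 and 7.29 FPKM (0.193, 0.151 to 0.242), and Vnn1, a pantetheinase, was at 3.12 and 2.13 FPKM (0.683).

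**Figure D4:**
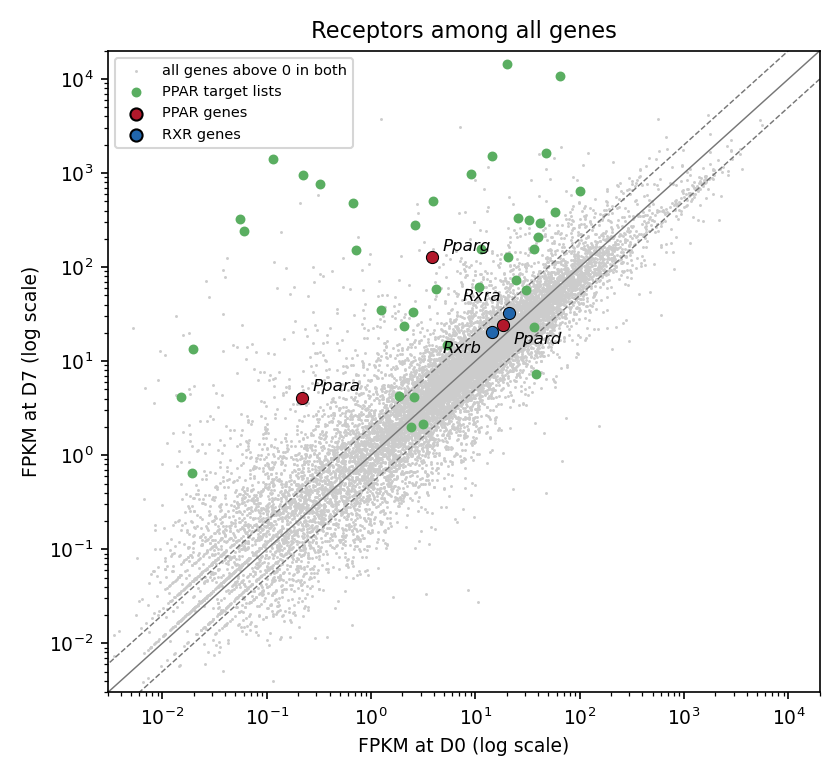
FPKM at D7 against FPKM at D0 on log axes for the genes above 0 in both libraries (grey), the listed PPAR targets (green) and the labelled receptors, with lines at ratios of 1, 2 and 0.5. Pparg and Ppara lie above the line for 2, Ppard, Rxra and Rxrb lie between the lines for 1 and 2, and most targets lie above the line for 2.

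The promoters of the receptors and targets were searched for the receptors' own element, 2 copies of AGGTCA with 1 base between, on both strands of the 300 bases around each start. It was found in 0 of the 11 receptor windows, in 0 of the windows of the matched targets (13 of 20 and 16 of 24 genes) and in 0.0396% of all windows. At so low a share, 0 was likely in so few windows for any genes, so the search cannot tell whether these genes carry elements. Sites farther from the starts were not searched. With the looser half-site AGGNCA, in which N is any base, 0.381% of all windows held the element. Among them were 0 of the receptor windows and 1 of the target windows. That window belongs to Fabp1, the liver fatty acid binding protein, which was listed at 0 in both libraries. Its element and 10 bases on each side are shown, with the element in capitals, from GRCm38.p6.
Fabp1 (chr6:71199802-71199834, plus strand): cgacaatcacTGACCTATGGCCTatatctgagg

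Coactivators, which receptors recruit to switch genes on, had shares of calls near those of all genes in the higher direction. Of 13 listed, 3 were called higher and 0 lower, beside 18.5% and 13.2% of all genes, with a median log2 ratio of 0.18 that became -0.17 with the floor and division by the median of all values. The calls were Ppargc1a, the coactivator PGC-1α known from brown fat (0.0370 FPKM from 5 fragments at D0 and 4.41 FPKM at D7, ratio 119, 50.7 to 368), Ppargc1b (0.241 and 3.97 FPKM, 16.5, 10.2 to 28.3) and Ncoa1, a histone acetyltransferase (3.04 and 8.43 FPKM, 2.78, 2.49 to 3.10). The lowest ratios were those of Carm1, an arginine methyltransferase (26.1 and 15.6 FPKM, 0.597), Ep300 (0.932) and Crebbp (0.937), a pair of related histone acetyltransferases. Of 10 listed corepressors and other negative cofactors, 1 was called higher, 0 lower, and the median log2 ratio was 0.15, or -0.20 with that floor and division. The call was Nrip1, the corepressor RIP140, with 3.22 and 11.3 FPKM (3.51, 3.18 to 3.88). Hdac3, a histone deacetylase, had a ratio of 1.00.

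The other partners of RXR differed in both directions. Of 13 listed, 10 were above 0 in both libraries, with 3 called higher and 4 lower, beside 18.5% and 13.2% of all genes. Their median log2 ratio was -0.43. The orphan receptor Nr4a1 was the highest of them at D0, with 30.7 FPKM, and had 3.44 at D7 (0.112, 0.0937 to 0.133). The vitamin D receptor Vdr had 14.7 and 3.04 FPKM (0.208, 0.180 to 0.239), and Nr4a2, a relative of Nr4a1, had 2.64 and 0.905 (0.343). In the other direction, the thyroid hormone receptor gene Thrb had 0.376 and 6.74 FPKM (17.9, 13.4 to 24.4), and the retinoic acid receptor gene Rarb had 0.431 and 0.908 (2.11, 1.29 to 3.51). The ratio of Rarb was 1.97 after division by the median of genes above 0 in both libraries and 1.33 with a pseudocount of 1, and it was then not called. The remaining calls were Nr1h3 (13.3, given with the fat storage targets) and Rarg, another retinoic acid receptor gene (23.9 and 11.2 FPKM, 0.468). Thra, the other thyroid hormone receptor gene, was the highest other partner at D7, with 27.5 FPKM at D0 and 36.0 at D7.

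Among regulators reported to act on Pparg, more of the activating than of the repressing ones were called higher. Of 14 activating ones, 8 were called higher and 0 lower, beside 18.5% and 13.2% of all genes, with a median log2 ratio of 1.38. Cebpa, which forms a mutual loop with Pparg in fat cells, had 9.67 and 305 FPKM, a ratio of 31.5, next to the ratio of 33.5 of Pparg itself. Klf15 and Klf9, KLF factors of adipogenesis, had ratios of 13.1 and 6.45. The early factors Cebpb (47.5 and 30.9 FPKM, 0.650), Egr2 (0.895) and Cebpd (0.998) were below or near 1. Of 8 repressing ones, 0 were called higher and 2 lower, beside the same shares of all genes, with a median log2 ratio of -0.46. Klf3 was at 1.11 and Ddit3 at 0.953. The calls were Gata2, a factor of preadipocytes (ratio 0.281), and Klf16 (11.6 and 4.23 FPKM, 0.364, 0.308 to 0.429), and Klf2 was at 0.511. Klf16 was singled out by the study for being lower in these same libraries, so its call is not independent evidence. The study also found Klf16 lower by qPCR during differentiation, and reported more PPARγ after its knockdown and less after its overexpression. Klf2 was listed as lower by the study, and Cebpa, Klf9, Klf15 and Gata2 were likewise reported from these libraries.

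**Figure D5:**
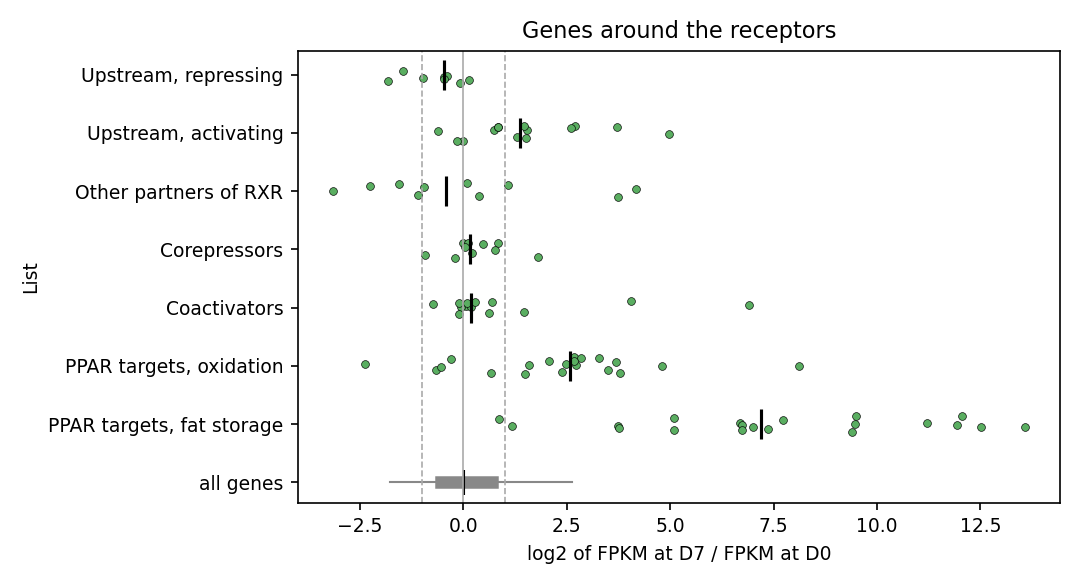
Log2 ratio of D7 to D0 for each gene above 0 in both libraries in 7 lists of PPAR targets, cofactors, other RXR partners and regulators of Pparg, with a black tick at each list's median. The bar for all genes spans the 25th to 75th percentiles (thick) and the 5th to 95th (thin), and the fat storage targets have the highest median, 7.19.

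The stage labels were set against marker genes of the cells. Of 6 adipocyte markers, the 5 above 0 in both libraries were all called higher and Lep went from 0 to 8.74 FPKM. Those 5 are also among the fat storage targets above, so they are not a separate check. The sum of the list went from 68.1 to 17500 FPKM, of which Fabp4 made up 20.3 and 14390 and Lpl 47.5 and 1618. Of 8 brown adipocyte markers, Ucp1, Cidea and Elovl3 were listed at 0 at D0 and at 4.57, 24.4 and 34.2 FPKM at D7. Of the other 5, 2 were called higher, Ppargc1a and Dio2. Ebf2 (ratio 1.68), Prdm16 (1.22) and Zic1 (0.611) were not called, and Zic1 was lower at D7. Of 6 preadipocyte markers, 2 were called lower and 2 higher. Of all genes, 18.5% were called higher and 13.2% lower.

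Some markers of other cells also differed between the libraries. Of 11 macrophage markers, 10 were called higher and 0 lower, beside 18.5% and 13.2% of all genes. The sum of the list went from 156 to 583 FPKM, with Adgre1 at 1.40 and 14.3 FPKM and Mrc1 at 0.589 and 21.1. Macrophages also use PPARγ and PPARδ, and the part of such cells in the levels of Pparg and Ppard was not tested. Skeletal muscle markers, relevant to Rxrg, differed in both directions. Their sum was 46.0 FPKM at D0 and 2.55 at D7, of which Acta1 made up 45.4 and 1.73. Of the myosin genes, Myh1 and Myh2 were higher at D7 and Myh4 had 1 fragment at D0 and 0 at D7. Myh1 was at 0.0239 and 0.563 FPKM (3 and 59 fragments, ratio 23.5, 7.67 to 117) and Myh2 was at 0 and 0.148 FPKM (0 and 16 fragments, at least 6.27-fold). The defining markers Myod1, Myf5, Pax7 and Ckm were at 0 in both libraries and Myog had 1 fragment at D7, and the part of muscle cells in the level of Rxrg was not tested. Endothelial markers summed to 1.62 and 2.69 FPKM, with Tek (0.520 and 1.62 FPKM, ratio 3.11) and Kdr (0.300 and 0.655, ratio 2.18) called higher, Cdh5 (0.159 and 0.0288, ratio 0.181) called lower and Tie1 and Cldn5 at 0 in both, and of 6 erythroid markers 5 were at 0 in both.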

How the data were processed

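RNA-Seq reads of the 2 libraries were filtered by the authors, who also removed duplicate reads, and were aligned to mm10. The study's methods name SOAP2 with up to 5 mismatches as the aligner, whereas the submitters' processing notes name Bowtie2. The authors deposited 1 FPKM value per gene and library, and whether counting used strand was not given in the sources used here. Removal of duplicates lowers the values of short and abundant genes most. The table has 27324 rows, and the 3963 of them that lack a value were left out.

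For genes above 0 in both libraries, the deposited FPKM at D7 was divided by that at D0, without pseudocount or rescaling, and called at 2.0 or more or at 0.5 or less. The 2.0-fold threshold is that of the study's methods, which state neither a floor nor a rescaling. The floor of 0.01 FPKM with division by the median of all values had been worked out in earlier work from folds that the study printed. With 1 library per stage no test was made. Fragments were recovered from 602 genes with a single exon, as the denominator (21472759 at D0 and 18264971 at D7) and length correction (179 and 182 bp) that made low values whole. Values at or below 20 fragments numbered 79 and 89, and 100% of them lay within 0.1 of a whole number, against 16.4% and 16.0% with shuffled lengths. The fit itself used low values, and it was not repeated on the shuffled lengths. For genes with several exons the fragments are approximate. Ratios carry exact Clopper-Pearson intervals, pairs of ratios conditional exact intervals, levels exact Poisson intervals and sums approximate Poisson intervals, all at 95%. A floor of 3 fragments was used for values of 0. The scripts were tested on simulated data.

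The 6 receptors and the gene lists were chosen with earlier results of these data known. Named from each list were up to 3 genes with the highest and 3 with the lowest ratio among those with at least 20 fragments in a library, and for likeness the 3 nearest genes to Pparg and the nearest to each other receptor above 0 in both, leaving out symbols in the form of a date. Some genes and a sequence that these rules would give are not reported here. Other genes named are markers, counts of 5 or fewer, or values singled out after being seen (Cidea, Elovl3, Mrc1, Adgre1, Acta1, Myh1, Myh2, Tek, Kdr, Thra). Protein identity was computed from coding sequences of GENCODE M21 on GRCm38, and promoters were those of RefSeq on GRCm38.p6. The alternatives were a pseudocount of 0.1 or 1, filters at FPKM of 0.1 or 1, TPM, other scalings and a call at 4.0-fold. The tools were scipy 1.17.1, pandas 2.3.3, numpy 2.4.6 and matplotlib 3.10.9 under Python 3.11.15.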

Additional observations from a re-analysis of the deposited data

How the results depend on the processing

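Of 180 recomputed values, 147 stayed near the reported value, 33 moved and 0 reversed. Near meant within its counting interval, 1.5 times a count or share, or 0.1 of a median log2 ratio. Only a ratio past 2.0-fold or a list median log2 ratio of at least 1 in size could be classed as reversed. The medians of coactivators and corepressors changed sign and were classed as moved. Extending the terminal exons leaves a ratio unchanged by construction, and those values are among the 147. A value near the reported one could still lose its call, as Rarb did. Dividing by the median of genes above 0 in both libraries shifted log2 ratios by -0.10, and the floor of 0.01 FPKM with the median of all values shifted them by -0.35. With that floor and median, the ratio of Pparg was 26.2, Ppard 1.01, Rxra 1.21 and Rxrb 1.09, and 3832 genes were lower (3247 of those above 0 in both libraries). For the lists this setting was added after seeing the data: medians were 6.84 for fat storage, 2.08 for oxidation, -0.17 for coactivators, -0.20 for corepressors, 1.03 for activating and -0.82 for repressing regulators, with 3 oxidation targets, 1 coactivator and 1 corepressor lower. Shares of the gain, also added then, were 0.233% for Ppard, 18.3% for Rxrb and 21.6% for Rxrg. With the median of genes above 0 in both, Rxra was at 1.45 and 1 corepressor was called lower. A pseudocount of 1 gave 26.7 for Pparg, 4.19 for Ppara, 1455 genes higher and 1009 lower, 18.8% for the share of Pparg in the PPAR sum at D0, and list medians of 6.60 for fat storage, 2.19 for oxidation, 0.86 for activating regulators and 0.00 for other partners of RXR. Requiring 1 FPKM moved the medians to 7.38 for fat storage and -0.95 for other partners of RXR. At 4.0-fold, 1211 genes were higher and 578 lower. Pseudocounts were not applied to Rxrg, which is at 0 at D0. No paired analysis was possible because there is 1 library per stage. Depth limits Rxrg, with 0 fragments at D0, to a fold over the limit of 3 fragments. Ppara rests on 15 fragments at D0, or 35 with its terminal exons extended.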
